A study of Mus musculus with 9 samples.

Results

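Osteoclasts are the bone-resorbing cells of the skeleton, and 10 genes they are known for were followed here through cartilage and bone of the mouse. The genes were given as a list by symbol, Ctsk, Acp5, Mmp9, Calcr, Ocstamp, Dcstamp, Nfatc1, Tnfrsf11a, Atp6v0d2 and Itgb3. Their names were picked with earlier results of these data known. All 10 were found among the 43472 genes of the deposited count table, and all 10 passed the filter on low counts that left 14257 genes for testing. The 9 RNA-seq libraries came from C57BL/6J mice: 3 of bone (Bone, labelled as osteoblasts), 3 of mature cartilage (MatC, labelled as mature chondrocytes) and 3 of immature cartilage (ImC, labelled as immature chondrocytes). The labels give no anatomical site, age, treatment or altered gene. Whether the 3 libraries of a tissue are from different animals is not stated, and the p-values cover no more than the spread seen among them, which may be technical.

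Osteoclasts form by fusion of precursors of the macrophage lineage. The cytokine RANKL binds the receptor RANK on these precursors and induces the transcription factor NFATc1, which switches on genes for fusion, acid secretion and matrix digestion. The mature cell attaches to mineral, seals off a space beneath itself, acidifies it with a proton pump and digests collagen with secreted proteases. In growing bones such cells, and related cells that remove cartilage, sit where hypertrophic cartilage is replaced by bone.

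The tissue labels were checked against defining genes before the osteoclast genes were read. Col1a1, the main bone collagen, stood at 19750 to 23190 CPM (counts scaled to a common library total) in Bone, at 163.8 to 7726 CPM in MatC and at 100.1 to 366.8 CPM in ImC. Col10a1, the collagen of hypertrophic cartilage, stood at 0.845 to 2.48 CPM in Bone, 816.9 to 4760 CPM in MatC and 0.427 to 0.75 CPM in ImC. Col2a1, the cartilage collagen, stood at 297.2 to 681.7 CPM in Bone, 4769 to 8400 CPM in MatC and 8402 to 9782 CPM in ImC, so that cartilage genes were also read in Bone, and Col1a1 in MatC. Total counts ran from 7913684 to 23159547 per library. Mitochondrially encoded genes took 7.24% to 8.91% of the counts in Bone, 33.7%, 69.1% and 82.3% in MatC replicates 1, 2 and 3, and 32.02% to 55.04% in ImC, so that this share separated Bone from both cartilage groups and was high in MatC replicate 2, the library that leads the results below. With these genes left out, the counts of osteoclast genes called were as with them, 9 for Bone against ImC, 0 for Bone against MatC and 5 for MatC against ImC. MatC replicate 3 stood apart, with 14940 genes holding a read against 17535 or more elsewhere. There 3 reads, used below as the floor of detection, came to 0.849 CPM, against 0.149 to 0.257 CPM in the other libraries. Levels below are CPM with library totals adjusted by TMM (the trimmed mean of M values), and intervals on a single library cover counting error only.

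The 10 genes lie on 9 chromosomes (GRCm38 coordinates from GENCODE M21; the submitters' notes name mm10, the same assembly). Tnfrsf11a is on chromosome 1 (105780718 to 105847981), Mmp9 and Ocstamp on chromosome 2 (164940780 to 164955850 and 165393760 to 165400405), Ctsk on chromosome 3 (95499256 to 95509362) and Atp6v0d2 on chromosome 4 (19876841 to 19922605). Calcr is on chromosome 6 (3685680 to 3764714), Acp5 on chromosome 9 (22126727 to 22135711), Itgb3 on chromosome 11 (104608000 to 104670476), Dcstamp on chromosome 15 (39745930 to 39760938) and Nfatc1 on chromosome 18 (80606205 to 80713071). Counts are per whole gene, over its exons. Acp5 and Nfatc1 each overlap 1 annotated noncoding gene on the opposite strand, and the library kit does not mark strand, so reads from those partners could not be told apart from their own.

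The genes differed widely between libraries of the same tissue. Summed over the 10 genes, the level was 674 CPM in MatC replicate 2, against 151 CPM in MatC replicate 1 and 80.1 CPM in MatC replicate 3. In Bone the sum was 530.0, 1157 and 1115 CPM in replicates 1, 2 and 3, and in ImC it was 26.7, 51.2 and 22.7 CPM. MatC replicate 2 therefore stood within the range of the Bone libraries, and the other MatC libraries stood between Bone and ImC. In bulk tissue, fewer osteoclasts and less RNA per osteoclast cannot be told apart.

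**Figure D1:**
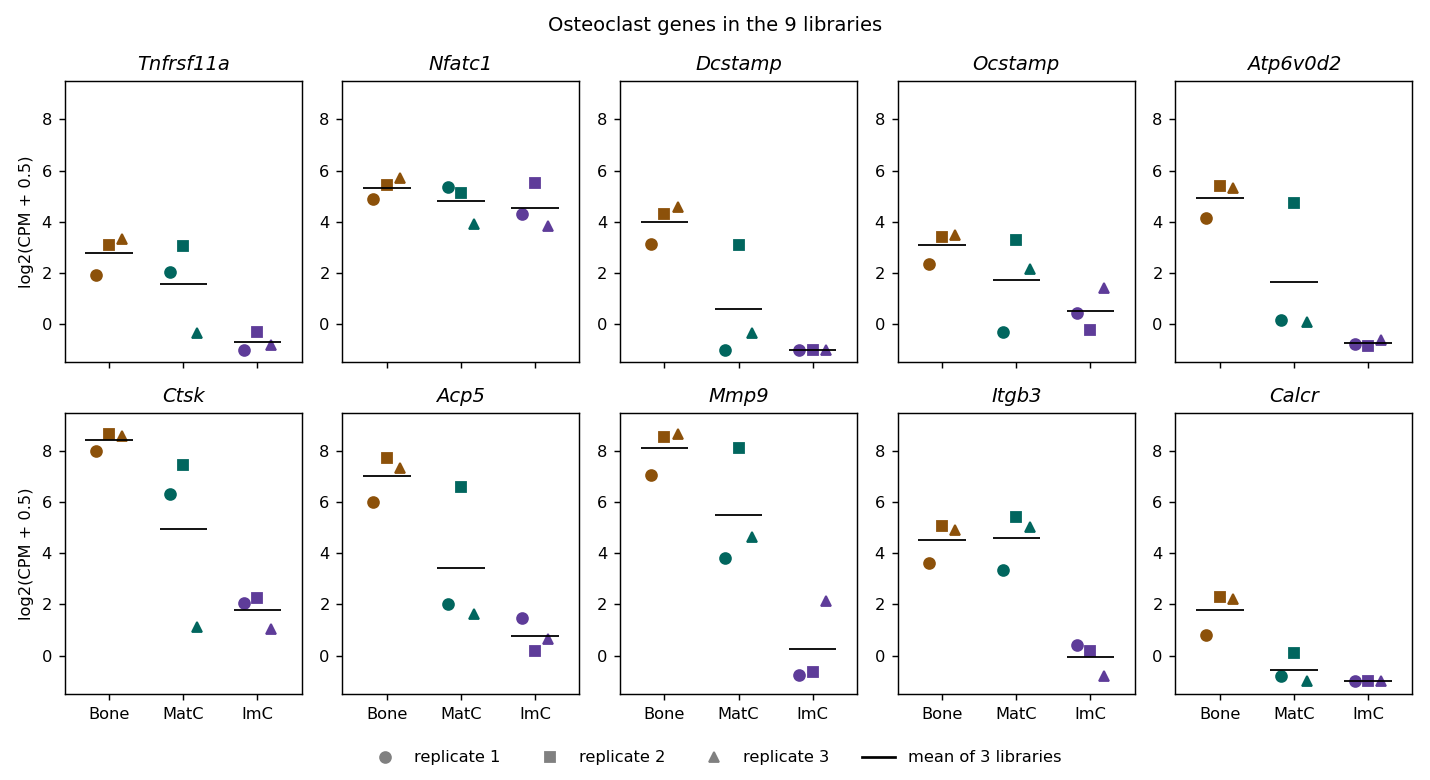
Level of each of the 10 osteoclast genes in each library, as log2 of CPM plus 0.5, in Bone, MatC and ImC; symbols mark the replicate and bars the mean of 3 libraries. In 9 of the 10 panels the highest MatC library is replicate 2, the exception being Nfatc1, and Bone replicate 1 is the lowest Bone library in all 10.

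Tnfrsf11a encodes RANK, the receptor through which RANKL starts osteoclast formation. It stood at 3.25, 7.96 and 9.52 CPM in Bone replicates 1, 2 and 3, at 3.56, 7.82 and 0.283 CPM in MatC and at 0, 0.298 and 0.0712 CPM in ImC. MatC replicates 1 and 2 lay within the Bone range, while MatC replicate 3 rested on 1 read and lay among the ImC libraries. Tnfrsf11a was higher in MatC than in ImC by 4.78 ± 1.13 on the log2 scale (standard error, SE; adjusted p = 0.0328 by edgeR's quasi-likelihood test with Benjamini-Hochberg adjustment).

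Nfatc1, the transcription factor at the head of the osteoclast programme, had a level unlike the other 9 genes. It stood at 28.7, 42.4 and 51.1 CPM in Bone, at 40.2, 34.7 and 14.4 CPM in MatC and at 19.0, 44.7 and 13.7 CPM in ImC. The 3 tissues overlapped, and ImC replicate 2 stood above MatC replicate 2. The log2 fold change was 0.66 ± 0.49 for Bone against ImC and 0.22 ± 0.49 for MatC against ImC (adjusted p = 0.333 and 0.83, edgeR), and neither was called. Nfatc1 is also used outside the osteoclast lineage, and it was read in ImC libraries where Dcstamp and Calcr had 0 reads.

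Dcstamp and Ocstamp encode the transmembrane proteins that osteoclast precursors need for fusion, and Atp6v0d2 encodes a subunit of the vacuolar proton pump that is also needed for efficient fusion. Dcstamp stood at 8.23, 19.3 and 23.4 CPM in Bone, at 0, 8.11 and 0.283 CPM in MatC, and had 0 reads in all 3 ImC libraries. Of 116 Dcstamp reads in MatC, 115 came from replicate 2. Over the pooled libraries Dcstamp was at least 255-fold higher in Bone than in ImC and at least 57.8-fold higher in MatC than in ImC, against a floor of 3 reads over the ImC group. Those folds are set by the floor, and the MatC value is set by replicate 2.

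Atp6v0d2 showed the same split, at 17.0, 41.3 and 39.1 CPM in Bone, 0.606, 26.2 and 0.566 CPM in MatC and 0.0833, 0.0496 and 0.142 CPM in ImC. The MatC and ImC libraries did not overlap, but MatC replicates 1 and 3 held 8 and 2 reads. Ocstamp stood at 4.60, 10.02 and 10.6 CPM in Bone, 0.303, 9.31 and 3.96 CPM in MatC and 0.833, 0.347 and 2.14 CPM in ImC. Ocstamp was lower in MatC replicate 1 than in any ImC library, with 4 reads, while MatC replicate 3 stood above all 3 ImC libraries. Counting intervals overlapped, at 0.0826 to 0.776 CPM in MatC replicate 1 against 0.40 to 1.53 and 0.14 to 0.716 CPM in ImC replicates 1 and 2. The interval of MatC replicate 3 (2.17 to 6.64 CPM) also overlapped that of ImC replicate 3 (1.44 to 3.05 CPM).

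Ctsk encodes cathepsin K, the protease that digests bone collagen, Acp5 encodes tartrate-resistant acid phosphatase, the classical stain for osteoclasts, and Mmp9 encodes a gelatinase. Ctsk stood at 258, 409 and 381 CPM in Bone, at 79.7, 174 and 1.70 CPM in MatC and at 3.67, 4.32 and 1.57 CPM in ImC. MatC replicate 3, with 6 Ctsk reads, lay within the ImC range, and the other 2 MatC libraries lay between ImC and Bone. Acp5 stood at 63.1, 213 and 161 CPM in Bone, at 3.56, 96.4 and 2.55 CPM in MatC and at 2.25, 0.645 and 1.07 CPM in ImC. Unlike Ctsk, Acp5 was close to its ImC levels in MatC replicate 1 and within the Bone range in MatC replicate 2.

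Mmp9 stood at 134, 376 and 406 CPM in Bone, at 13.6, 275 and 24.0 CPM in MatC and at 0.0833, 0.149 and 3.92 CPM in ImC. All 3 MatC libraries were above all 3 ImC libraries, and ImC replicate 3 held 55 of the 59 ImC reads. That ImC library also held more erythroid RNA than the others of its group, with 361 CPM of the haemoglobin gene Hba-a1 against 1.67 and 6.21 CPM, and the part of blood or marrow in its Mmp9 level was not tested.

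The starting regions of Ctsk and Acp5 are shown because these resorption genes parted in MatC replicate 1. RefSeq promoter sequences were matched for 4 of the 10 genes (Ctsk, Acp5, Calcr and Tnfrsf11a), with 7 start sites among them. Each line gives the 250 bases before a start site, 5′ to 3′ on the strand of the gene, and capitals mark matches on either strand to GGAAA (the core of NFAT sites), TGANTCA (AP-1), TCANGTG (the Mitf M-box) or GAGGAAG (PU.1). GGAAA and GAGGAAG have GGAA in common.
Ctsk (GRCm38.p6, chr3:95498960-95499209, plus strand): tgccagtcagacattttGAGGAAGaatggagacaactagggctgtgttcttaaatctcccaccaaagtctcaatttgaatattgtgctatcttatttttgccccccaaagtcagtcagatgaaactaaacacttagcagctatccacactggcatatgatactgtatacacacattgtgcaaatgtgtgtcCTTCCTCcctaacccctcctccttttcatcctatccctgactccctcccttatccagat
Acp5 (GRCm38.p6, chr9:22130599-22130848, minus strand): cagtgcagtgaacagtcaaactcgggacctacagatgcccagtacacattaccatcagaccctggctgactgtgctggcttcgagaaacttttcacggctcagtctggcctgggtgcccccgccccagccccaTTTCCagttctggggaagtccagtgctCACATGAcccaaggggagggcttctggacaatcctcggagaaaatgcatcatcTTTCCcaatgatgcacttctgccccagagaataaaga
In the Ctsk window GAGGAAG was found at 2 places and the other motifs at none. In the Acp5 window, 1 of 3 start sites for that gene, GGAAA was found at 2 places and TCANGTG at 1. This was the Acp5 window with the most matches. The other Acp5 windows, not printed, each held GGAAA at 1 place and no other motif. Over the 7 windows of the 4 genes, GGAAA was found in 4, TGANTCA in 0, TCANGTG in 2 and GAGGAAG in 1. The windows with GGAAA were those of Acp5 and 1 of Calcr. Among all 32851 RefSeq windows of this length the shares were 55.6%, 6.75%, 12.2% and 10.6%. A match is only a description of these letters.

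Itgb3 encodes the beta chain of the integrin with which osteoclasts grip the matrix, and Calcr encodes the calcitonin receptor, a hormone receptor of mature osteoclasts that inhibits resorption when bound. Itgb3 stood at 11.9, 33.0 and 29.3 CPM in Bone, at 9.63, 42.4 and 32.2 CPM in MatC and at 0.833, 0.645 and 0.0712 CPM in ImC. Bone and MatC overlapped throughout, and all 6 of these libraries stood above all 3 ImC libraries. MatC replicate 3, where Ctsk and Acp5 were near their ImC levels, held 114 Itgb3 reads. Calcr stood at 1.25, 4.45 and 4.17 CPM in Bone, at 0.0758, 0.564 and 0 CPM in MatC, and had 0 reads in ImC. Calcr was at least 47.9-fold higher in Bone than in ImC. In MatC it rested on 9 reads in all, 8 of them in replicate 2.

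Within MatC, replicate 2 was the highest library for 9 of the 10 genes, where 33.2% of all 14244 genes tested that had a read in MatC had their highest level in that library. Replicate 3 was the lowest for 6 of the 10, where the share over all genes was 44.1%, so that count was near the background. On the log2(CPM + 0.5) scale the median difference of replicate 2 over replicate 1 was 2.85 for the 10 genes and 0.08 for all genes, and that of replicate 2 over replicate 3 was 3.43 and 0.15. For replicate 1 over replicate 3 the medians were 0.13 and 0.16.

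The size of the step from MatC replicate 1 to replicate 2 differed between the genes. Atp6v0d2 was higher in replicate 2 by a ratio of 43.2 (95% counting interval 21.7 to 101), Ocstamp by 30.7 (11.7 to 114), Acp5 by 27.1 (20.2 to 37.0) and Mmp9 by 20.3 (17.5 to 23.7). Dcstamp, with 0 reads in replicate 1, was 35.7-fold higher against a floor of 3 reads in that library (lower 95% counting limit 28.5). The interval of Calcr (7.44, 0.998 to 330) spanned 1. Itgb3 was higher by a ratio of 4.41 (3.64 to 5.38), and the ratios of Ctsk and Tnfrsf11a were 2.18 (2.03 to 2.34) and 2.20 (1.55 to 3.16). Nfatc1 had a ratio of 0.862 (0.761 to 0.976). Fusion genes, Acp5 and Mmp9 thus took larger steps between these 2 libraries than Ctsk and Tnfrsf11a did. With 1 library on each side, these are differences between libraries, not tested across replicates.

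MatC replicates 1 and 3 differed from each other in kind more than in sum. Ctsk was higher in replicate 1 by a ratio of 46.9 (95% counting interval 21.5 to 128), Tnfrsf11a by 12.6 (2.15 to 508) and Nfatc1 by 2.79 (2.09 to 3.80). The Tnfrsf11a ratio set 47 reads against 1 read in replicate 3, which is under the floor. In the other direction the ratio of replicate 1 over replicate 3 was 0.0766 for Ocstamp (0.0183 to 0.244), 0.299 for Itgb3 (0.230 to 0.388) and 0.564 for Mmp9 (0.434 to 0.739). For Acp5 (1.40, 0.678 to 3.25) and Atp6v0d2 (1.07, 0.214 to 10.4) the interval spanned 1. Calcr and Dcstamp had 1 read in all over these 2 libraries for each gene, at or under the floor.

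**Figure D2:**
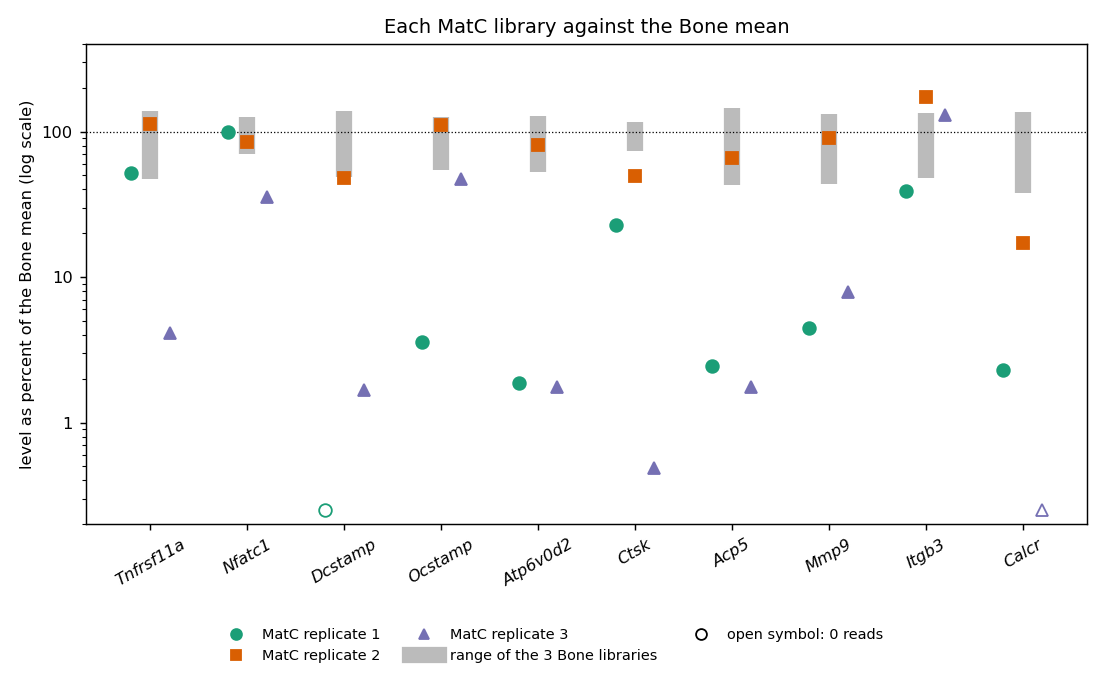
Level of each gene in each MatC library as a percentage of the Bone mean, on a log scale; grey bars span the 3 Bone libraries and open symbols at the foot stand for 0 reads. MatC replicate 2 lies within the Bone range for 6 genes, MatC replicate 1 for 2 and MatC replicate 3 for 1.

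Set against the Bone mean, MatC replicate 2 reached a median of 82.9% over the 10 genes, from 17.2% for Calcr to 172% for Itgb3. It lay within the range of the Bone libraries for Acp5, Mmp9, Ocstamp, Nfatc1, Tnfrsf11a and Atp6v0d2. MatC replicate 1 reached a median of 4.02% and lay within the Bone range for Nfatc1 and Tnfrsf11a, with Ctsk at 22.8% and Itgb3 at 38.9%. MatC replicate 3 reached a median of 2.92%, with Itgb3 at 130% and Ocstamp at 47.0% as its highest genes. Of the 10 genes, 6 were under 10% of the Bone mean in MatC replicate 1 and 7 in MatC replicate 3.

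Ratios within a library, which need no scaling between libraries, showed the same parting of Ctsk from Acp5. Per read of Acp5 there were 4.08, 1.92 and 2.37 reads of Ctsk in Bone replicates 1, 2 and 3. In MatC replicate 2 there were 1.80 (95% counting interval 1.69 to 1.93), and in MatC replicate 1 there were 22.4 (16.7 to 30.6). MatC replicate 3, with 6 reads of Ctsk and 9 of Acp5, gave 0.667 (0.195 to 2.10). For Itgb3 the reads per read of Acp5 were 0.155 to 0.189 in Bone, against 2.70, 0.440 and 12.7 in MatC replicates 1, 2 and 3. For Atp6v0d2 they were 0.193 to 0.270 in Bone and 0.272 (0.242 to 0.305) in MatC replicate 2. The intervals of Bone replicates 1 and 2 did not overlap, at 0.237 to 0.306 and 0.175 to 0.213. The ratio thus differed between these libraries, though by less than that of Ctsk to Acp5.

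Bone itself was not uniform for these genes. Bone replicate 1 was the lowest Bone library for all 10, where 34.7% of all genes had their lowest Bone level in that library. Its level was 28.9% to 65.2% of the mean of Bone replicates 2 and 3, with a median of 38.4% over the 10 genes and 99.5% over all genes. Ctsk and Nfatc1 fell short by the least, at 65.2% and 61.5%, and Calcr and Acp5 by the most, at 28.9% and 33.7%. The macrophage and endothelial lists were lower in the same library, as given further on.

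Levels were set side by side between genes only per kilobase of exon, which 1 round of amplification from the transcript end can distort. On that scale Ctsk was the highest of the 10 in all 3 Bone libraries, at 170 to 271 CPM per kilobase, followed by Mmp9 at 38.0 to 115 and Acp5 at 31.1 to 105. Mmp9 stood above Acp5 in each Bone library, but their ranges overlapped. Calcr was the lowest in all 3, at 0.318 to 1.14. In MatC replicate 2 the first 4 places went to Ctsk, Mmp9, Acp5 and Atp6v0d2, the same order as in Bone. In all 3 ImC libraries the highest was Nfatc1.

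Bone was compared with ImC to ask which of the genes set bone apart from cartilage that had not matured. Of the 10 genes, 9 rose and 0 fell, beside 14.3% of all genes tested that rose and 16.8% that fell. Nfatc1 was the gene not called. Scaled by library size alone, 1224 of all genes rose and 849 fell, against 2039 and 2393 with TMM. Ctsk averaged 349 ± 80.6 CPM in Bone and 3.18 ± 1.44 CPM in ImC (SD, n = 3 each), and its log2 fold change was 6.77 ± 1.23 (SE; adjusted p = 0.00358, edgeR). Acp5 rose by 6.82 ± 1.42, Mmp9 by 7.80 ± 1.64, Atp6v0d2 by 8.39 ± 1.62, Tnfrsf11a by 5.54 ± 1.15 and Itgb3 by 5.56 ± 0.81 on the log2 scale. The smallest rise was that of Ocstamp, at 2.93 ± 1.01 (adjusted p = 0.0498, edgeR).

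Bone and ImC did not overlap for these 9 genes, all with Bone higher, beside 30.1% of all genes with Bone higher and 28.8% with Bone lower. The median log2 fold change was 6.79 over the 10 genes, 6.17 with Dcstamp and Calcr set at a floor of 3 ImC reads, and -0.02 over all genes. The call of Ocstamp ended without any 1 of the Bone libraries, without ImC replicate 1 or 2 and without MatC replicate 3, and with a minimum count of 30, with adjusted p up to 0.122 (edgeR). Without ImC replicate 3, Mmp9 rose by 11.18 and Ocstamp by 3.87, without ImC replicate 2 Tnfrsf11a rose by 7.19 and the value of Nfatc1 was 1.32, and without ImC replicate 1 Acp5 rose by 7.46.

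MatC was compared with ImC to ask which of the genes came in as cartilage matured. Of the 10 genes, 5 rose and 0 fell, beside 5.41% of all genes tested that rose and 2.29% that fell. The 5 were Ctsk, Mmp9, Tnfrsf11a, Atp6v0d2 and Itgb3; with library size alone Itgb3 was the 1 gene called, and 191 of all genes rose and 167 fell, against 772 and 327 with TMM. The mean of Itgb3 was 28.1 ± 16.8 CPM over the MatC libraries and 0.517 ± 0.397 CPM over those of ImC (SD, n = 3 each), a rise of 5.74 ± 0.82 in log2 units (adjusted p = 0.00468, edgeR). Ctsk rose by 4.74 ± 1.12, Mmp9 by 6.25 ± 1.54 and Atp6v0d2 by 6.61 ± 1.57 (adjusted p = 0.0332, 0.038 and 0.0332, edgeR). The log2 fold change of Acp5 was 4.74 ± 1.31 and that of Ocstamp was 2.05 ± 0.999 (adjusted p = 0.0541 and 0.237, edgeR). DESeq2 called 6 genes and edgeR with no filter on low counts called 7, Acp5 and Dcstamp being among them in both.

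Dcstamp and Calcr, with 0 reads in ImC, were not called either (adjusted p = 0.0728 and 0.113, edgeR); Calcr was at least 4.48-fold higher in MatC. MatC and ImC did not overlap, with MatC higher, for 4 of the 10 genes (Acp5, Mmp9, Atp6v0d2 and Itgb3), where the share of all genes was 11.4%. The median log2 fold change was 4.84 over the 10 genes, 4.76 with Dcstamp and Calcr set at that floor, and 0.03 over all genes.

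Of the 5 rises, that of Itgb3 was the one called in each of the 19 alternatives tried, with log2 fold changes of 4.77 to 6.16 and adjusted p up to 0.0275. Without MatC replicate 2, the count of genes called was 1, and the log2 fold changes were 3.70 for Ctsk, 3.76 for Mmp9, 3.85 for Tnfrsf11a and 2.64 for Atp6v0d2 (adjusted p = 0.0832, 0.0995, 0.0863 and 0.0781, edgeR). In that fit Acp5 stood at 1.29 ± 0.64 (adjusted p = 0.262, edgeR), Ocstamp at 0.77, Dcstamp at 3.08 and Calcr at 2.87. Without ImC replicate 3 the value of Ocstamp was 2.99, and without ImC replicate 2 that of Nfatc1 was 0.88. The count was also 1 without ImC replicate 1 and without any 1 of the Bone libraries, 2 without ImC replicate 2 (Tnfrsf11a and Itgb3) and 2 without ImC replicate 3 (Mmp9 and Itgb3). Without ImC replicate 3 or 1 the value of Mmp9 was 9.63 or 5.66, and without ImC replicate 2 that of Tnfrsf11a was 6.43. Without MatC replicate 1 the 5 genes called were Acp5, Mmp9, Dcstamp, Atp6v0d2 and Itgb3.

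The third comparison set Bone beside MatC, the question being whether the genes still separated bone from mature cartilage. None of the 10 genes was called by edgeR, beside 1.36% of all genes tested that rose and 4.69% that fell (119 and 178 genes with library size alone, against 194 and 669 with TMM). After adjustment DESeq2 called 1, Calcr, and limma-voom called 0. At an unadjusted p under 0.05 edgeR counted 1 of the 10, Calcr, beside 3234 of the 14257 genes. At that threshold DESeq2 counted 3 and limma-voom 6, beside 3698 and 3074 of all genes. The edgeR count was 7 with library size alone, 6 with no filter, 5 with a replicate block and 0 with a minimum count of 30. All genes then numbered 3683, 4182, 3171 and 2823. For Calcr the log2 fold change came to 3.61 ± 1.05 (adjusted p = 0.0846, edgeR), with 149 reads in Bone and 9 in MatC. The mean of Ctsk was 349 ± 80.6 CPM over the Bone libraries and 85.0 ± 86.1 CPM over those of MatC (SD, n = 3 each), and its log2 fold change was 2.03 ± 0.98 (adjusted p = 0.25, edgeR). Bone did not overlap MatC for Ctsk, Calcr and Dcstamp, where 17.9% of all genes stood higher in Bone without overlap.

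The large spread within MatC bore on this comparison directly. Without MatC replicate 2 the genes called were 3, namely Acp5, Dcstamp and Atp6v0d2, with log2 fold changes of 5.54, 7.81 and 5.76 (adjusted p = 0.00514, 0.0178 and 0.00173, edgeR). With all libraries the log2 fold changes were 2.07 ± 1.12, 2.50 ± 1.31 and 1.78 ± 1.08 (adjusted p = 0.305, 0.30 and 0.364, edgeR). Without MatC replicate 2 the values of genes not called were 5.65 for Calcr, 4.05 for Mmp9, 3.08 for Ctsk, 2.18 for Ocstamp and 1.71 for Tnfrsf11a. Without MatC replicate 1 that of Dcstamp was 1.91. Without ImC replicate 3 the count was 1, Calcr. The log2 fold change of Itgb3 was -0.18 ± 0.64 (adjusted p = 0.901, edgeR), the 1 value below 0 among the 10, and it stood at 1.18 when library size alone was used for scaling, which moved the median of all genes by 0.98.

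**Figure D3:**
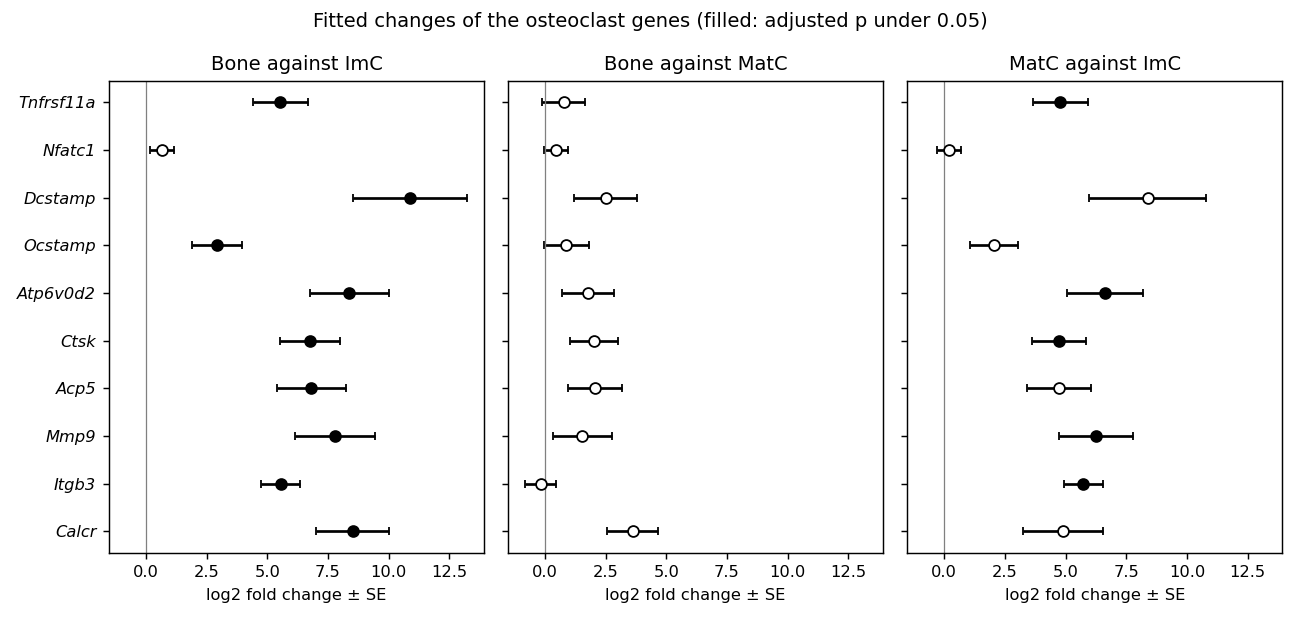
Log2 fold change with its SE for each gene in the 3 comparisons, from edgeR; filled points had an adjusted p under 0.05. The filled points number 9 for Bone against ImC, 0 for Bone against MatC and 5 for MatC against ImC.

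Other genes of the osteoclast pathway were taken from lists chosen with earlier results of these data known. The acid secretion and resorption list held 19 genes (proton pump subunits, chloride channel, carbonic anhydrase). Of these, 10 rose and 1 fell in Bone against ImC, beside 14.3% and 16.8% of all genes. In Bone against MatC 1 of them rose and 0 fell, beside 1.36% and 4.69%. In MatC against ImC 2 of them rose and 0 fell, beside 5.41% and 2.29%. Their median log2 fold change for MatC against ImC was 0.67, against 0.03 over all genes. Many of these genes also serve lysosomes outside osteoclasts, and all 19 had reads in all 9 libraries. In MatC replicate 2, 8 of the 19 had their highest MatC level, beside 33.2% of all genes. The pump subunit Atp6v1b2 rose by 1.38 ± 0.35 in MatC against ImC (adjusted p = 0.0402, edgeR), with 59.1, 97.1 and 41.3 CPM in the MatC libraries and 20.6 to 29.5 CPM in ImC. The subunit Atp6v1c1 rose by 1.13 ± 0.30 (adjusted p = 0.0461, edgeR), and its 3 MatC libraries stood close together, at 23.04, 22.6 and 25.5 CPM. Snx10, a sorting nexin required for osteoclast resorption, had 10.6, 43.1 and 1.70 CPM in MatC replicates 1, 2 and 3, the same order as Ctsk, and was not called (adjusted p = 0.0761, edgeR).

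Of 28 genes of RANK and co-receptor signalling, 25 were tested. Of these, 14 rose and 1 fell in Bone against ImC, beside 14.3% and 16.8% of all genes. In Bone against MatC 0 of them rose and 1 fell, beside 1.36% and 4.69%. In MatC against ImC 6 of them rose and 0 fell, beside 5.41% and 2.29%. The median log2 fold changes were 2.83, 0.51 and 1.79, against -0.02, -0.03 and 0.03 over all genes. Prdm1, a repressor that lifts the brakes on osteoclast formation, had 0 reads in ImC. Against a floor of 3 reads over ImC, Prdm1 was 129-fold higher in MatC. Its level was 1.36, 13.96 and 12.4 CPM in MatC replicates 1, 2 and 3, so that it was high in replicate 3 as Itgb3 was. Vav3, an exchange factor that acts downstream of the integrin, rose by 2.86 ± 0.47 (adjusted p = 0.00876, edgeR), at 8.72, 11 and 9.34 CPM in MatC and 0.783 to 1.99 CPM in ImC. The phospholipase Plcg2 rose by 3.50 ± 0.71 (adjusted p = 0.0186, edgeR) and was lowest in MatC replicate 2, at 1.48 CPM against 3.79 and 4.53 CPM. In MatC replicate 2, 21 of the 25 genes had their highest MatC level, beside 33.2% of all genes.

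Of 9 genes for signals that act on osteoclast precursors 5 were tested. Of these, 1 rose and 0 fell in MatC against ImC and in Bone against ImC, where 5.41% and 14.3% of all genes rose. In Bone against MatC, where 1.36% of all genes rose and 4.69% fell, 0 of the 5 were called (edgeR). In MatC replicate 2, 3 of the 5 had their highest MatC level, beside 33.2% of all genes. Tnfsf11, which encodes RANKL, was the gene called. It had 11.1, 4.79 and 2.26 CPM in the 3 MatC libraries, in replicate order, and had 1 read in all of ImC, a ratio of 333 (95% counting interval 59.2 to 13218). It was highest in MatC replicate 1, where Dcstamp had 0 reads and Ctsk had 1051. Tnfrsf11b, the decoy receptor for RANKL, stood at 0.91, 2.47 and 2.26 CPM in MatC against 14.8, 15.5 and 0.641 CPM in ImC (log2 fold change -2.47 ± 0.92, adjusted p = 0.131, edgeR). Wnt5a, a ligand that enhances RANK expression in precursors, stood at 445, 121.5 and 165 CPM in MatC and 36.0, 0.745 and 19.4 CPM in ImC (adjusted p = 0.0508, edgeR).

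Markers of other cell types were read beside the osteoclast genes, and some followed the same libraries. Of 13 macrophage and leukocyte genes tested, 5 rose in MatC against ImC, beside 5.41% of all genes. In Bone against ImC 10 of the 13 rose, beside 14.3%. In Bone against MatC, where 1.36% of all genes rose and 4.69% fell, 0 of the 13 were called. Their summed level over 15 genes was 51.3, 117 and 122 CPM in Bone replicates 1, 2 and 3, 29.6, 109 and 29.1 CPM in MatC and 28.5, 11.8 and 31.9 CPM in ImC. Laptm5 carried much of the cartilage sums, and without it they were 35.5, 87.8 and 79.5 CPM in Bone, 20.01, 64.2 and 10.5 CPM in MatC and 4.67, 3.23 and 5.99 CPM in ImC. In both sums MatC replicate 2 and Bone replicates 2 and 3 were the high libraries, as for the osteoclast genes. C1qa, a macrophage complement gene, was 57.8-fold higher in MatC than a floor of 3 reads over ImC. It was spread over the MatC libraries at 2.35, 5.43 and 2.26 CPM. Aif1, a macrophage marker, was highest in MatC replicate 3, at 3.39 CPM against 0.985 and 1.55 CPM, and the leukocyte antigen Cd52 stood at 1.44, 1.48 and 1.13 CPM. At 0 reads were 6 of the 15 genes in MatC replicate 3, among them the leukocyte antigen Ptprc and the myeloid integrin Itgam, and 6 to 8 in the ImC libraries, where C1qa, C1qb, Aif1, Mrc1 and Fcgr3 were at 0 throughout. Csf1r, given below, is in this list and in that of RANK signalling.

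Endothelial genes rose in 12 of 18 cases in MatC against ImC, beside 5.41% of all genes, and in 13 in Bone against ImC, beside 14.3%. In Bone against MatC 0 rose and 1 fell, beside 1.36% and 4.69%. Their summed level was 84.7, 229 and 244 CPM in Bone, 156, 426 and 128 CPM in MatC and 18.2, 30.5 and 39.0 CPM in ImC. Without Erg, at 85.4 CPM in MatC replicate 3, the sums were 82.5, 223 and 240 CPM in Bone, 142 CPM, 394 CPM and 43.0 CPM in MatC and 9.92, 10.1 and 31.3 CPM in ImC. The vessel genes Cdh5, Kdr and Tek stood at 14.8, 19.6 and 14.1 CPM in MatC replicate 1, at 28.1, 38.8 and 12.5 CPM in replicate 2 and at 0.566, 1.41 and 0.566 CPM in replicate 3. MatC replicate 1 thus held these vessel genes well above the floor. Of the osteoclast genes there, Dcstamp had 0 reads, Calcr 1, Ocstamp 4 and Atp6v0d2 8. Ctsk had 1051 reads, Nfatc1 531, Mmp9 179, Itgb3 127, and Acp5 and Tnfrsf11a 47 each. Tek was the only gene of the list that stood higher in replicate 1 than in replicate 2. Over the list, 15 of 18 genes had their highest MatC level in replicate 2, beside 33.2% of all genes. The median log2 difference of replicate 2 over replicate 1 was 1.34, against 2.85 for the osteoclast genes and 0.08 for all genes. The endothelial genes at 0 in MatC replicate 3 were Tie1, Robo4 and Sox17, and in each ImC library 4 to 7 of the 18 were at 0. The erythroid sum over 9 genes was 9212, 6439 and 7319 CPM in Bone, 1112, 3507 and 874 CPM in MatC and 10.2, 21.7 and 1425 CPM in ImC. Of 7 erythroid genes tested, 1 rose in MatC against ImC and 2 in Bone against ImC, beside 5.41% and 14.3% of all genes (edgeR). In Bone against MatC, where 1.36% of all genes rose and 4.69% fell, 0 of the 7 were called. The erythroid membrane gene Slc4a1 had 0.0758, 9.59 and 0.283 CPM in the MatC libraries, in replicate order (adjusted p = 0.0623 for MatC against ImC, edgeR).

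Osteoblast genes rose in 13 of 20 cases in MatC against ImC, beside 5.41% of all genes, and in 19 in Bone against ImC, beside 14.3%. In Bone against MatC 3 rose and 1 fell, beside 1.36% and 4.69%. Their sum was 11135, 34209 and 10174 CPM in MatC replicates 1, 2 and 3. Pth1r alone held 7125 CPM in MatC replicate 3, and without it the sums were 9973, 31700 and 3049 CPM. Alpl, Phex and Dlx3, which act in mineral formation and osteoblast identity, stood at 359, 139 and 47.0 CPM in MatC replicate 2, against 113, 35.0 and 15.9 CPM in replicate 1 and 137, 15.6 and 17.5 CPM in replicate 3. Of the hypertrophic chondrocyte genes 9 of 14 rose in MatC against ImC, beside 5.41% of all genes. The sum over the 14 was 5687, 12604 and 14494 CPM in the MatC libraries, highest in replicate 3. Pth1r held 1162, 2509 and 7125 CPM of these sums, and without it replicate 2 was the highest. Alpl, Ibsp, Spp1 and Pth1r are in both the osteoblast and the hypertrophic list. Col10a1 was highest in MatC replicate 3, at 4760 CPM, and Mef2c in replicate 1, at 634 CPM. Of the immature chondrocyte genes 2 of 16 fell in MatC against ImC, Sox5 and Sox6, beside 2.29% of all genes. The sum over the 16 genes was lowest in MatC replicate 2, at 13421 CPM against 23913 and 31148 CPM. Macrophage, endothelial, erythroid and osteoblast genes were thus all highest in sum in the MatC library where the osteoclast genes were highest, also without Laptm5, Erg and Pth1r, and their part in that result was not tested. In Bone the order differed, the erythroid sum being highest in replicate 1, where all 10 osteoclast genes were lowest.

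**Figure D4:**
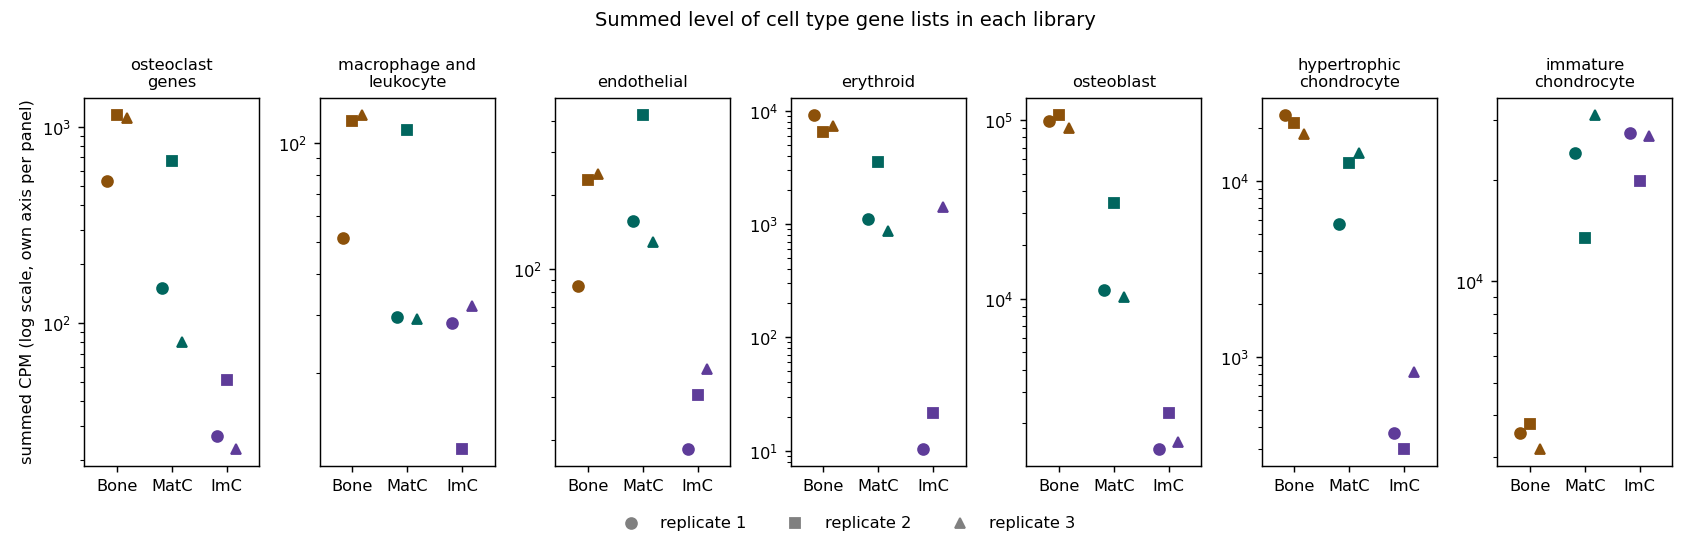
Summed CPM of 7 gene lists in each library, on log scales that differ between panels; symbols mark the replicate. MatC replicate 2 is the highest MatC library for the osteoclast, macrophage and leukocyte, endothelial, erythroid and osteoblast lists and the lowest for the immature chondrocyte list.

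Correlations across the 9 libraries are given as a description, since they fall into 3 tissues and share their scaling. On the log2(CPM + 0.5) scale, Pearson's r of each gene with the mean standardized level of the other 9 was 0.98 for Atp6v0d2 and Acp5, 0.96 for Dcstamp, 0.94 for Tnfrsf11a, 0.93 for Mmp9, 0.92 for Ctsk and 0.90 for Calcr. It was lower for Ocstamp (0.78), Itgb3 (0.77) and Nfatc1 (0.55). Outside the list, the 10 genes most like the mean of the members were Cyp2s1, Khdrbs2, Chchd10, Cited4, Cyth4, Atp6v1b2, Csf1r, Pfn1, Ptprv and Ighd, with r of 0.98 to 0.99. Csf1r, the receptor for the growth factor that keeps osteoclast precursors alive, stood at 9.53, 22.0 and 30.7 CPM in Bone, 2.05, 23.6 and 1.13 CPM in MatC and 0.0993 to 0.641 CPM in ImC. Cyp2s1, Cited4 and Ighd were below 3 CPM in every library, where a few reads set the value.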

How the data were processed

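Per the labels' protocols, RNA from small samples was amplified for 1 round before an Illumina TruSeq preparation, which does not mark strand. Per the submitters' processing notes, the tools were Trimmomatic 0.30, TopHat2, Bowtie2, HTSeq and edgeR with mm10; which tool did what is not given in the sources used here. Raw counts were deposited, 1 row per gene symbol, and all 9 columns were matched to samples. A second table deposited by the authors holds a score, normalized counts in whole numbers, used only to read back 1 scaling factor per library.

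Genes were kept by filterByExpr (minimum count 10), scaled by TMM and tested with edgeR 4.0.16 (R 4.3.3), 1 fit over 9 libraries with 1 mean per group, called at an adjusted p under 0.05. SE was taken as the size of the log2 fold change divided by the root of its F statistic. Alternatives used DESeq2 1.42.0 and limma 3.58.1. Counting intervals are exact at 95%; amplified reads are not independent molecules. The members and lists were chosen with earlier results of these data known. Named were the 10 members, up to 3 genes per list by smallest p in MatC against ImC, and the 10 most similar genes; genes named beside them, as a check of the labels (Col1a1, Col2a1), because they stood at 0 or because they carried a sum, were chosen after their values were seen. 1 gene of the erythroid list is not reported here by name.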

Additional observations from a re-analysis of the deposited data

How the results depend on the processing

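Of 560 single-gene values under the alternatives, 494 kept their direction and their side of the threshold, 45 fell short of it, 15 newly passed it and 6 changed sign. In MatC against ImC, Ctsk fell short in 11 of 19 alternatives, and Mmp9, Tnfrsf11a and Atp6v0d2 in 9 of 18 each. In Bone against ImC, Ocstamp fell short in 7 of 19. The genes called in MatC against ImC numbered 5, 7 with no filter, 6 with DESeq2, and 1 with library size only, with limma-voom and with only the 2 groups compared; leaving out 1 library at a time gave 1 to 6. In Bone against MatC the count was 0, 2 with no filter on low counts (Ctsk and Calcr), and 1 (Calcr) with the DESeq2 Wald test and with only the 2 groups compared; leaving out 1 library gave 0 to 3. In Bone against ImC it was 9, with 8 to 9 over the libraries left out, and 7 with a minimum count of 30, where Calcr was not tested and Ocstamp was not called (2.87, adjusted p = 0.055, edgeR). DESeq2 gave no adjusted p for 1 member, Mmp9. Library size only moved the median of all genes on the log2 scale by -0.54 for MatC against ImC, by 0.98 for Bone against MatC and by 0.48 for Bone against ImC. Under it Nfatc1 in MatC against ImC stood at -0.21 and Itgb3 in Bone against MatC at 1.18. With 1 library left out, Nfatc1 ran from -0.083 to 0.88 (below 0 without ImC replicate 3 or MatC replicate 1) and Itgb3 from -0.59 to 0.28 (above 0 without MatC replicate 2 or Bone replicate 1). The cause was not tested. Of all genes, 1099 were called in MatC against ImC (358 with library size only, 1690 with no filter, 2229 with DESeq2, 205 with only the 2 groups, 355 to 1240 with 1 library left out), 863 in Bone against MatC (297, 1504 and 1964 under the first 3 of these, 167 to 1702 with 1 left out) and 4432 in Bone against ImC (2073 with library size only, 2343 to 5408 with 1 left out). Replicate numbers are shared between groups. Deviations from the group means correlated at -0.15 to 0.28 over 9 same-numbered pairs and at -0.456 to 0.412 over pairs with different numbers. With so few libraries these values cannot settle whether same-numbered libraries share an animal or a preparation. With the replicate block the counts of members called were 5, 0 and 9, and of all genes 725, 814 and 4088, against 1099, 863 and 4432. In MatC replicate 2, 9 genes were highest under each of 4 other scalings, and 6 or 8 were lowest in replicate 3. Depth limits MatC replicate 3, where levels under 0.849 CPM rest on fewer than 3 reads.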
